A study of Mus musculus with 11 samples.

Results

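The genes described here are nuclear-encoded subunits of oxidative phosphorylation with the usual family symbols, measured in fibroblasts from normal and wounded mouse skin. Members were chosen by symbol alone: the Nduf genes of the a, b, c, s and v series, Sdha to Sdhd, and all symbols that begin with Uqcr, with Cox and a digit from 4 to 8, or with Atp5. Ndufa4l2 and pseudogenes were left out. Subunits under other names, such as Cyc1, Ndufab1 and Usmg5, do not match the rule. They are counted below among the electron carriers and partners. This gave 83 of the 47643 gene symbols listed, of which 35 belong to complex I, 4 to complex II, 8 to complex III, 19 to complex IV and 17 to complex V. Ndufa4 was counted with complex IV, where its protein resides. A few symbols keep old family names: Atp5s and Atp5sl encode a coupling factor and a factor named for the assembly of complex I rather than fixed parts of the ATP synthase, and Cox7a2l encodes a factor that holds complexes III and IV together.

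Oxidative phosphorylation takes place in the inner mitochondrial membrane. Complex I and complex II pass electrons from NADH and succinate to ubiquinone, complex III passes them on to cytochrome c, and complex IV hands them to oxygen. Complexes I, III and IV pump protons, and complex V, the ATP synthase, lets the protons flow back to make ATP. Most subunits are encoded in the nucleus, while a small core is encoded in mitochondrial DNA. Fibroblasts in a healing wound divide, migrate and deposit matrix, and use glycolysis as well as respiration.

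RNA was sequenced from CD140a-positive live cells, negative for CD45, CD11b and F4/80 and, by the labels, for CD3, sorted from back skin of female mice 9 to 12 weeks old on a mixed CD-1 and C57Bl/6 background. The groups were unwounded skin of wild-type mice (WT NS), unwounded skin of mice that express INHBA, which encodes activin A, in keratinocytes under the keratin 14 promoter (Act NS), and 5-day excisional wounds of either genotype (WT 5dw and Act 5dw). There were 3 libraries in WT NS, Act NS and WT 5dw and 2 in Act 5dw, where the submitters excluded replicate 2 at quality control. Each library was a pool of 3 animals, made from 100 ng of RNA for NS and 200 ng for 5dw, so that RNA input and wounding cannot be told apart.

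The deposited values are RPKM, a read count scaled by transcript length and by the library's mapped reads, and depth recovered from them ran from 18649321 to 39702138 mapped reads a library. By this estimate the WT 5dw libraries were the deepest, at 38740404 to 39702138, against 18649321 to 29718956 in the other 8. The paper states about the same number of reads for all retained samples, so the estimate departs from it, most of all in WT 5dw. Act NS replicate 1 had the lowest summed RPKM, 225686 against 240740 to 278066 elsewhere. All 12 fibroblast markers examined were detected and summed to 12777 to 18561 RPKM in NS and 23444 to 26708 in 5dw. That sum is mostly collagen, as Col1a1, Col1a2 and Col3a1 rose with Mfap5, while 5 of the 12 fell in WT and 4 in Act, and the medians of the log2 fold changes over the 12 were -0.19 and -0.38. The 14 keratinocyte markers summed to 1277 to 4823 RPKM in NS and 176 to 1545 in 5dw, and the 8 general immune markers were each under 1 RPKM in every library. The 7 T cell markers summed to 4.02 to 35.6 RPKM in NS and 58.8 to 107 in 5dw, most of it Cd3e, while 5 of the 7 were under 1 RPKM in every library. The 6 neutrophil markers summed to 0.310 to 1.22 RPKM in NS and 2.94 to 21.5 in 5dw, and the 6 Schwann cell markers to 6.35 to 12.8 and 1.41 to 1.77. The 7 adipocyte markers, Lpl the most abundant, summed to 66.8 to 127 RPKM in NS and 45.5 to 69.4 in 5dw. Macrophage markers, Cd68 the most abundant, summed to 9.73 to 16.6 and 10.8 to 15.1. Endothelial markers summed to 22.1 to 38.8 and 21.9 to 28.9, and pericyte markers to 13.8 to 22.5 and 11.9 to 19.5. The part of other cells in the results below was not tested. In bulk samples, fewer cells of a type and less RNA per cell cannot be told apart.

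Subunit genes were expressed well above the typical gene. Of the 83 members, 78 reached 1 RPKM in at least 2 libraries and were tested, and 76 reached it in all 11. The median over tested members of the mean RPKM was 17.4, against 4.35 over all 11979 genes tested. The highest mean was that of Cox6a1, a small nuclear subunit of complex IV, at 89.3 RPKM, followed by Atp5b at 87.7 and Atp5a1 at 80.5, which encode the catalytic and the partner subunit of the ATP synthase head. The 2 highest in complex I were Ndufb11 at 34.5 and Ndufa1 at 33.8 RPKM, both accessory subunits of the membrane arm. In complex III they were Uqcrh, the hinge protein, at 44.0 RPKM and Uqcrb at 31.9. The median level per complex was 12.5 RPKM in complex I, 16.8 in II, 22.5 in III, 28.2 in IV and 22.3 in V.

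Together the members held 0.638% to 0.733% of summed RPKM in the 6 NS libraries and 0.676% to 0.761% in the 5 5dw libraries, which overlap. The WT share was 0.703% ± 0.0389 (SD, n = 3) before and 0.728% ± 0.0327 (n = 3) after wounding, and the Act share 0.658% ± 0.0229 (n = 3) and 0.678% ± 0.00317 (n = 2). Without Atp5j2 and Cox8a the mean WT shares were 0.682% and 0.677%, and the Act shares 0.639% and 0.657%. The 13 subunits encoded in mitochondrial DNA held 4.42% to 6.12% in NS and 4.17% to 5.15% in 5dw. The complex IV share was 0.200% to 0.218% in WT 5dw, above the 0.165% to 0.194% of the other 8 libraries, but this separation came from Cox8a. Without Cox8a the share was 0.160% to 0.176% in WT 5dw and 0.147% to 0.172% elsewhere, and the groups overlapped.

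**Figure D1:**
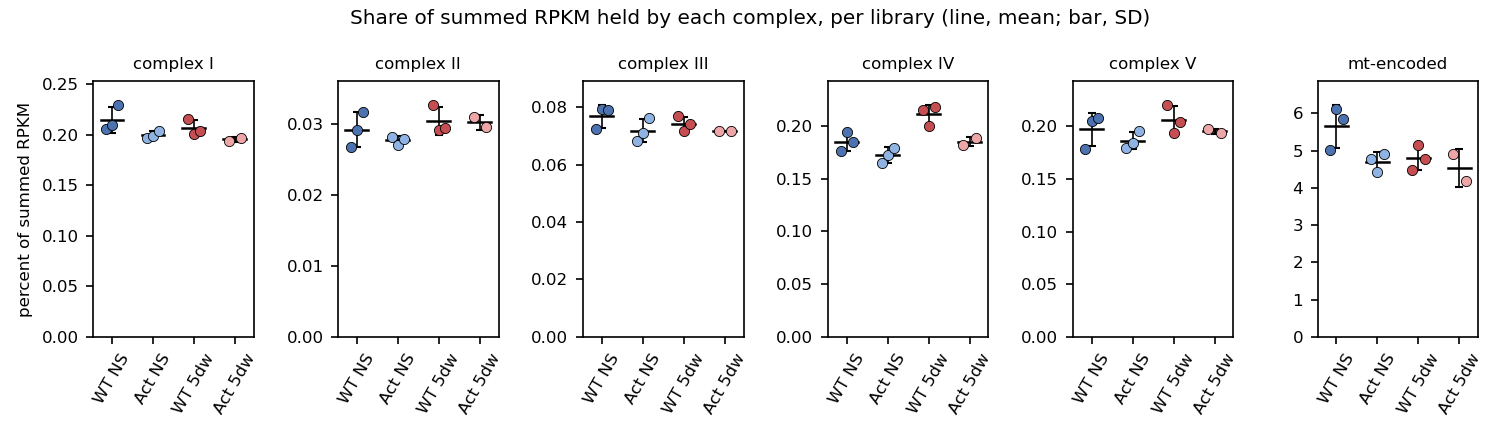
Share of summed RPKM held by the genes of each complex and by the 13 mitochondrially encoded subunits, in percent, for each library; lines are group means and bars SD (n = 3, and 2 for Act 5dw). NS and 5dw libraries of both genotypes pooled overlap in every panel, and the 3 WT 5dw libraries lie above the others in complex IV, where they overlap once Cox8a is left out (0.160% to 0.176% against 0.147% to 0.172%).

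Wounding was compared with normal skin within each genotype, by limma on log2(RPKM + 0.5) with Benjamini-Hochberg adjustment over all genes tested. In WT mice, 11 of the 78 members passed an adjusted p of 0.05, 3 higher and 8 lower in 5dw. The 8 include Cox4i2, which passed the filter on low values through NS alone, and without it 10 of 77 passed (13.0%), 7 of them lower. The 11 are 14.1% of members, against a background of 58.3% of all genes tested, of which 9.45% were higher and 48.8% lower. The median log2 fold change of the members was -0.13, against -0.40 over all genes. In Act mice, 6 members passed, all lower, or 7.69% against a background of 45.6% (9.04% higher and 36.5% lower), with medians of -0.04 for members and -0.31 for all genes. In WT, 73 of the 78 members had a 95% confidence interval of the log2 fold change within -1 and 1, and in Act 74 had.

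The direction of most members rested on how libraries were scaled. Median-ratio scaling, which centres the libraries on the typical gene, moved the median of all genes to 0.00 in both genotypes. The members' median then became 0.32 in WT and 0.30 in Act. With it, 36 members were higher and 2 lower in WT 5dw, against 22.4% and 22.2% of all genes (44.6% in all). Cox4i2, testable only through NS, was among the 2 lower. In Act 5dw 25 were higher and 1 lower, against 19.9% and 20.8% (40.7% in all). Relative to the typical gene, then, the members' median was above 0 in both genotypes, while on the deposited scale with all libraries it was below 0.

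**Figure D2:**
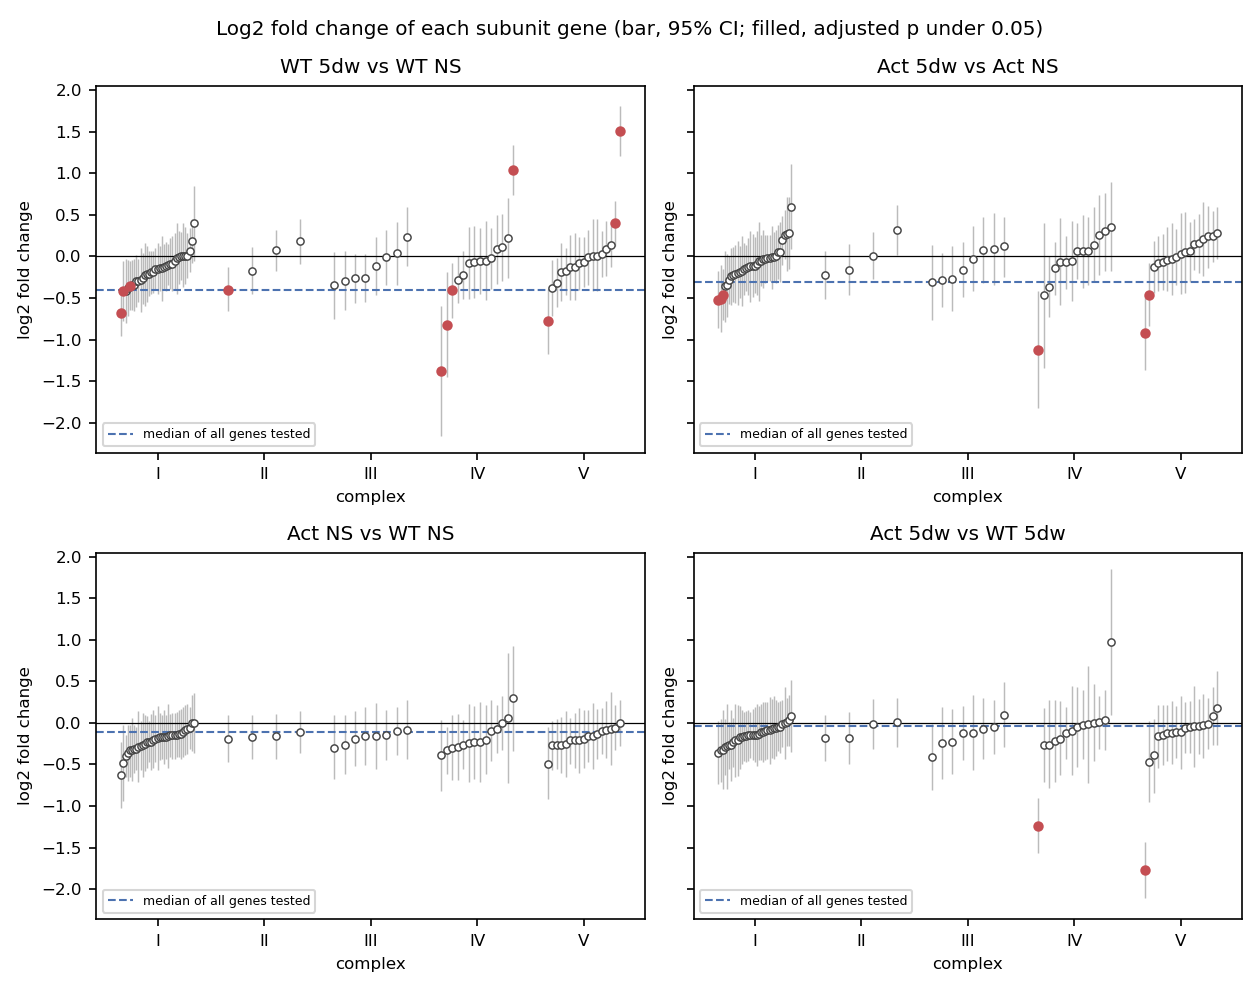
Log2 fold change of each of the 78 tested members on the log2(RPKM + 0.5) scale, grouped by complex, in the 4 comparisons; bars are 95% confidence intervals, filled points passed an adjusted p of 0.05 and the dashed line is the median of all genes tested. In the wounding comparisons most members lie above the dashed line, and Atp5j2 and Cox8a stand apart in Act 5dw vs WT 5dw at -1.77 and -1.24.

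Atp5j2 and Cox8a stood apart from the other members. Atp5j2 encodes subunit f of the membrane part of the ATP synthase, and Cox8a the widely expressed form of a small single-span subunit of cytochrome c oxidase. Their promoters are printed here because these 2 genes moved together, as RefSeq sequence of build GRCm38.p6 on the minus strand, from 250 bases before to 10 bases after the start. Capitals mark the letters of a GABPA core match, and the Atp5j2 window holds none of the motifs searched. The windows are chr5:145191532-145191791 and chr19:7217607-7217866.
Atp5j2: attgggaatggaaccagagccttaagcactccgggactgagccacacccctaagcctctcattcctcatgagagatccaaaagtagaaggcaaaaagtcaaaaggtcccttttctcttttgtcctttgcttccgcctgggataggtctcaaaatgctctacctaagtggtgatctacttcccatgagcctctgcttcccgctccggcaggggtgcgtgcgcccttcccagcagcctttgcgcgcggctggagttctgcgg
Cox8a: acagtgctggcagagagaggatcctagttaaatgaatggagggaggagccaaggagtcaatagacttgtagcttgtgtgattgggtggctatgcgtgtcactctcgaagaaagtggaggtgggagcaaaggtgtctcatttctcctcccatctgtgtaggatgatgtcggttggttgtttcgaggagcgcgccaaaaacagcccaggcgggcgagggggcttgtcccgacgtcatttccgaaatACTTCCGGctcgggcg

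Atp5j2 (chromosome 5, 145183698 to 145192062, minus strand, GRCm38) was at 7.86, 10.6 and 8.09 RPKM in WT NS and at 6.31, 7.72 and 7.89 in Act NS. It reached 27.8, 25.2 and 25.0 RPKM in WT 5dw, and was at 7.16 and 7.32 in Act 5dw. The 3 WT 5dw libraries were above the other 8, and the lowest of them was 2.35 times the highest of the rest. Act NS overlapped both WT NS and Act 5dw, and the Act 5dw libraries lay below all WT NS libraries. The log2 fold change was 1.51 ± 0.14 (SE) in WT 5dw vs WT NS (adjusted p = 1.46e-05, limma) and -0.01 (95% CI -0.34 to 0.33) in Act 5dw vs Act NS.

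Cox8a (chromosome 19, 7215153 to 7217616, minus strand) was also highest in WT 5dw, at a higher level. It was at 47.1, 60.3 and 42.6 RPKM in WT NS and at 40.6, 42.8 and 40.4 in Act NS. The WT 5dw libraries were at 99.3, 103 and 104 RPKM and the Act 5dw libraries at 41.4 and 45.0. The lowest WT 5dw library was 1.65 times the highest of the others. The log2 fold change was 1.04 ± 0.14 (SE) in WT (adjusted p = 0.000137, limma) and 0.06 (95% CI -0.27 to 0.40) in Act.

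Between genotypes in wounds, both genes were lower in Act 5dw than in WT 5dw, and they were the only members that passed, 2 of 78 or 2.56%, against a background of 0.0334% of all genes (4 of 11979, with 0.025% lower). The log2 fold change was -1.77 ± 0.15 (SE, adjusted p = 0.00232, limma) for Atp5j2 and -1.24 ± 0.15 (adjusted p = 0.0353) for Cox8a. Cox8a passed in 14 of 23 alternative settings, with adjusted p of 0.00136 to 0.352, and Atp5j2 in 21 of 23, with 0.000111 to 0.0913. Without Act 5dw replicate 1 or replicate 3, neither passed, although the log2 fold changes were -1.76 and -1.79 for Atp5j2 (adjusted p = 0.0913 and 0.0784, limma) and -1.18 and -1.29 for Cox8a (0.352 and 0.179). These fits leave 1 Act 5dw library, which is assumed to vary like the other groups. Without any 1 WT 5dw library Cox8a did not pass. The interaction of wounding and genotype was -1.52 ± 0.21 for Atp5j2 (adjusted p = 0.0913) and -0.98 ± 0.20 for Cox8a (adjusted p = 0.549), so the difference in response did not pass after adjustment. For Atp5j2 it passed with no filter on low values (adjusted p = 0.0489, limma), with array weights (0.0134) and without WT NS replicate 2 (0.0497).

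The other members of the same complexes did not share this pattern. In Act 5dw vs WT 5dw, the other 16 complex V genes tested had log2 fold changes of -0.47 to 0.18, and the other 13 complex IV genes of -0.26 to 0.97. Of all genes tested, 233 (1.95%) were above the other 8 libraries in all 3 WT 5dw libraries, and 2 of them were members. The gap between WT 5dw and the next library was 1.5-fold or more in 7 genes, which were chosen after their values were seen: Atp5j2, Gm14760, Cox8a, Reg1, Phpt1, Lsm7 and Tmsb4x. The WT 5dw libraries are also the deepest by the recovered depths, and the part of depth in this pattern was not tested. Of the 31-base stretches of the annotated transcripts, 0% in Cox8a and 3.2% in Atp5j2 also occur in another gene. The annotated exons of Atp5j2 cover 3306 bases, while the length behind its RPKM was inferred as 1231. The share in the part that was counted is therefore not known.

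**Figure D3:**
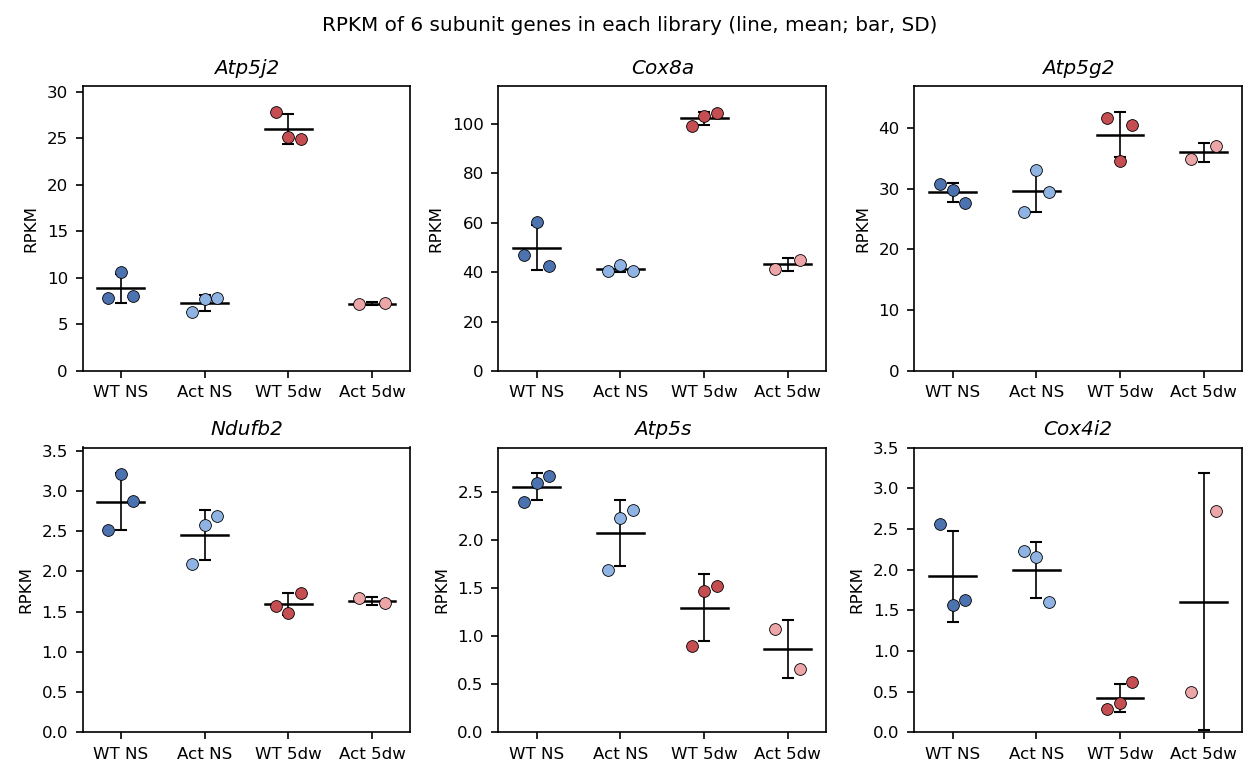
RPKM of 6 members in each library by group; each point is a library, lines are means and bars SD (n = 3, and 2 for Act 5dw). WT 5dw is at 25.0 to 27.8 for Atp5j2 and 99.3 to 104 for Cox8a, above all others, while Ndufb2 is lower in 5dw than in NS in both genotypes.

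Among the other ATP synthase genes, 1 rose and 1 fell in WT wounds on the deposited scale, where 9.45% of all genes were higher and 48.8% lower. With median-ratio scaling 8 of the 17, Atp5j2 among them, were higher and 0 lower in WT, against 22.4% and 22.2% of all genes, and 7 were higher and 1 lower in Act, against 19.9% and 20.8%. Atp5g1, Atp5g2 and Atp5g3 encode the same mature subunit c, the ring that turns in the membrane, with different targeting peptides. Atp5g2 was at 30.8, 29.8 and 27.6 RPKM in WT NS and 26.1, 33.1 and 29.5 in Act NS. In WT 5dw it stood at 41.6, 34.6 and 40.4, and Act 5dw gave 34.9 and 37.1. All 5 wound libraries were above all 6 NS libraries. It rose by 0.40 ± 0.13 on the log2 scale in WT (adjusted p = 0.02, limma), and in Act the value was 0.28 (95% CI -0.03 to 0.60). The WT call was lost without WT NS replicate 3, WT 5dw replicate 1 or WT 5dw replicate 3 and with the adjustment for length, with adjusted p up to 0.0785 over the alternatives, and 40.2% of the gene's 31-base stretches also occur in another gene.

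Atp5g2 held 43.0% to 52.3% of the summed RPKM of the set in NS and 50.2% to 54.7% in 5dw. Atp5g3 held 40.8% to 49.3% in NS and 38.2% to 42.0% in 5dw, and Atp5g1 the remainder, 5.27% to 9.45% and 4.36% to 8.57%. Atp5g3 and Atp5g1 had log2 fold changes of -0.01 and 0.01 in WT and 0.06 and 0.03 in Act. Atp5s, the coupling factor, was at 2.40, 2.60 and 2.67 RPKM in WT NS and 1.69, 2.24 and 2.32 in Act NS. After wounding, the WT values were 0.899, 1.48 and 1.53 RPKM and the Act values 1.08 and 0.657. NS and 5dw did not overlap in either genotype, and Atp5s fell by 0.78 on the log2 scale in WT (SE 0.18, adjusted p = 0.00377, limma) and by 0.92 in Act (SE 0.20, adjusted p = 0.0039). The WT call was lost with median-ratio scaling (-0.42) and quantile normalization (-0.29), and the Act call without Act 5dw replicate 3 (adjusted p = 0.0531, limma). Atp5d, the delta subunit of the central stalk, passed in Act at -0.46 ± 0.17 (adjusted p = 0.0498, limma) and in 7 of 23 alternatives. Its Act value was -0.21 without Act 5dw replicate 1 and -0.10 with median-ratio scaling. The WT value was -0.38 (adjusted p = 0.0549, limma, and 0.0408 with a replicate block).

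Complex I had 3 members lower in WT 5dw and 3 lower in Act 5dw, of 35, and none higher, or 8.57% in each against 48.8% and 36.5% of all genes lower. With median-ratio scaling 16 were higher and 1 lower in WT, against 22.4% and 22.2% of all genes, and 10 higher and 0 lower in Act, against 19.9% and 20.8%. Ndufb2, an accessory subunit of the membrane arm, was at 2.51, 3.21 and 2.88 RPKM in WT NS and 2.09, 2.57 and 2.68 in Act NS. WT wound libraries gave 1.57, 1.48 and 1.74 RPKM and Act wound libraries 1.67 and 1.60. All wound libraries were below all NS libraries. It fell by 0.68 on the log2 scale in WT (SE 0.13, adjusted p = 0.0011, limma) and by 0.46 in Act (SE 0.14, adjusted p = 0.0206), and it overlaps Braf on the opposite strand. Under the alternatives its adjusted p reached 0.193 in WT and 0.777 in Act, both lost with quantile normalization. The Act call was also lost with median-ratio scaling, with the compared groups alone and without Act NS replicate 2 or 3 or either Act 5dw library. Ndufa6, which carries a LYR motif, fell by 0.42 in WT (SE 0.16, adjusted p = 0.0484) and by 0.51 in Act (SE 0.18, adjusted p = 0.0431), and with a replicate block the adjusted p was 0.0543 and 0.0724. With median-ratio scaling its WT value turned to 0.03. Its call was kept in 11 of 23 alternatives in each genotype, and was lost in WT without WT NS replicate 1 or 3 or any 1 wound library, and in Act without WT NS replicate 3, Act NS replicate 2 or any 1 wound library.

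Ndufs1, the large iron-sulphur subunit of the electron-input arm, passed in WT at -0.36 ± 0.13 (adjusted p = 0.0397, limma) and was -0.22 in Act (adjusted p = 0.257). Ndufa11 passed in Act at -0.52 ± 0.15 (adjusted p = 0.0172) and was -0.34 in WT (adjusted p = 0.0529, and 0.0494 with the block). Ndufa5 did not pass in the main test but did in WT with the block, at -0.38 (adjusted p = 0.0488, limma), and was -0.04 in Act with it. Ndufs1, Ndufa11 and Ndufa5 lay outside the rule for named genes and were chosen after their values were seen. At the other end stood Ndufs5, at 0.40 ± 0.21 in WT and 0.60 ± 0.23 in Act, where the adjusted p was 0.0535, and 0.0226 with the block, and Ndufc2, at 0.18 and 0.26, neither of which passed.

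In complex II, which links the citric acid cycle to the respiratory chain, 1 of the 4 genes passed in WT and none in Act on the deposited scale, against 58.3% and 45.6% of all genes. With median-ratio scaling all 4 estimates were above 0 in both genotypes, and 3 genes passed as higher in WT and 2 in Act, against 22.4% and 19.9% of all genes. Sdha, the flavoprotein that oxidises succinate, was at 21.4, 22.4 and 26.2 RPKM in WT NS and 18.5, 21.6 and 22.0 in Act NS. Wounds held 18.5, 16.8 and 17.5 RPKM in WT mice and 17.5 and 17.7 in Act mice. It fell by 0.40 on the log2 scale in WT (SE 0.12, adjusted p = 0.0152, limma), and the Act value was -0.22 (95% CI -0.51 to 0.07). With median-ratio scaling the WT value turned to 0.05, and the call was lost with quantile normalization and without WT NS replicate 3 or WT 5dw replicate 2. Sdhd, a membrane anchor, was at 28.8, 31.7 and 30.5 RPKM in WT NS and 23.8, 28.9 and 29.0 in Act NS. The wound values were 37.9, 32.8 and 32.6 RPKM in WT and, in Act, 35.3 and 32.9. Every wound library was above every NS library, but the log2 fold changes of 0.18 (95% CI -0.09 to 0.45) and 0.32 (0.02 to 0.62) did not pass after adjustment. Sdhb, the iron-sulphur subunit, had values of -0.17 and -0.16, and Sdhc, the other anchor, of 0.08 and 0.01.

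None of the 8 complex III genes passed in either genotype, although 58.3% and 45.6% of all genes did. Their log2 fold changes ran from -0.35 to 0.23 in WT and from -0.31 to 0.12 in Act, and all 8 confidence intervals lay within -1 and 1 in both. With median-ratio scaling 3 of the 8 were higher in WT and 2 in Act, against 22.4% and 19.9% of all genes. Uqcr11 and Uqcrh had the lowest WT values, -0.35 and -0.29, and Uqcrq and Uqcrb the highest, 0.23 and 0.04.

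Complex IV is the complex with the most tissue-restricted isoforms, and its log2 fold changes ran from -1.38 to 1.04 in WT, or from -0.82 when Cox4i2, which was testable only through NS, is left out. Of the 14 genes tested, 1 was higher and 3 lower in WT and 1 lower in Act, against 9.45% higher and 48.8% lower of all genes in WT and 36.5% lower in Act. With median-ratio scaling 6 were higher and 1 lower in WT, against 22.4% and 22.2% of all genes, and 4 higher and 0 lower in Act, against 19.9% and 20.8%. The 1 lower in WT was Cox4i2, which was also among the 3 lower on the deposited scale. Cox4i2, the isoform known from lung and from low oxygen, was at 2.57, 1.57 and 1.62 RPKM in WT NS and 2.23, 2.16 and 1.60 in Act NS. Its levels in WT wounds were 0.288, 0.360 and 0.622 RPKM, and in Act wounds 0.494 and 2.72. The WT 5dw libraries were below all NS libraries, while 1 Act 5dw library lay below and the other above all of them. It fell by 1.38 on the log2 scale in WT (SE 0.35, adjusted p = 0.00681, limma), the Act value was -0.47 (95% CI -1.34 to 0.40), and the interaction was 0.91 (adjusted p = 0.999). The Act value rested on which wound library was used, at 0.38 without Act 5dw replicate 1 (adjusted p = 0.333, limma) and -1.32 without replicate 3 (adjusted p = 0.0106), with the lone library assumed to vary like the other groups. With quantile normalization the WT value was -0.82 and did not pass (adjusted p = 0.0941, limma). The gene passed the filter on low values through the NS libraries alone, so it could only be tested because it was high there. Its share of the Cox4 pair was 2.12% to 3.82% in NS, 0.462% to 1.06% in WT wounds, and in the Act wound libraries 0.824% and 4.49%, and Cox4i1 made up the rest.

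Cox6b2, known from testis, was at 4.47, 2.13 and 1.55 RPKM in WT NS and 4.04, 3.37 and 2.32 in Act NS. In the wound libraries WT mice had 1.07, 1.19 and 1.35 RPKM and Act mice 1.01 and 1.37. Its groups did not overlap within a genotype. It fell by 0.82 in WT (SE 0.29, adjusted p = 0.03, limma) and by 1.13 in Act (SE 0.32, adjusted p = 0.015), while Cox6b1 was at 0.09 and 0.30 and did not pass. With median-ratio scaling Cox6b2 was at -0.47 and -0.86, and neither passed. The WT call was also lost with no filter and without WT 5dw replicate 1 or 2, and without WT NS replicate 1, its highest library, the value was -0.45 (adjusted p = 0.0948, limma). Without Act 5dw replicate 1 the Act value was -0.97 (adjusted p = 0.102, limma). Cox6b2 made up 2.76% to 10.2% of the Cox6b pair in NS and 1.56% to 2.19% in 5dw. Cox7a2l fell by 0.41 in WT (SE 0.15, adjusted p = 0.0355, but 0.05 on the log2 scale with median-ratio scaling) and was at -0.37 in Act (adjusted p = 0.0933), and Cox7a2 was at -0.02 and 0.06. The Cox7a2l call was also lost with no filter, with quantile normalization, without WT NS replicate 1 or 2 and without any 1 WT 5dw library.

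**Figure D4:**
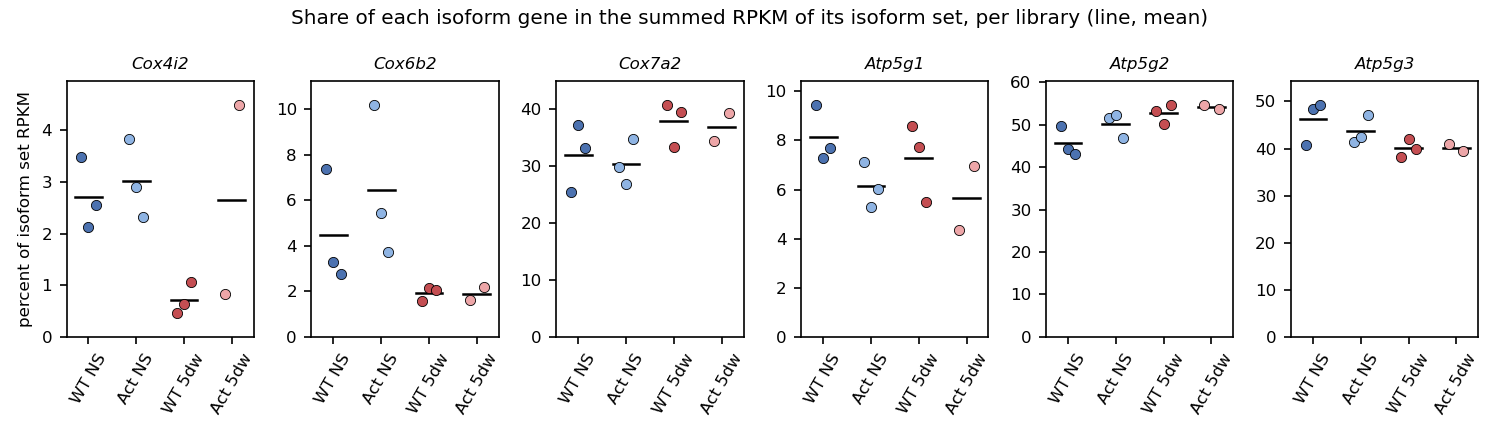
Share of 6 isoform genes in the summed RPKM of their isoform set, in percent, for each library, with group means as lines. Cox6b2 lies at 2.76% to 10.2% in NS and 1.56% to 2.19% in 5dw, and Cox4i2 is split in Act 5dw at 0.824% and 4.49%.

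The isoforms of muscle, brown fat and testis were near or at the lower limit. Cox7a1, of muscle and brown fat, was at 0.0781 to 0.802 RPKM in NS and 0.282 to 0.729 in 5dw, and Cox6a2, of muscle, at 0 to 0.246 and 0 to 0.0574. Cox8b, of muscle and brown fat, was at 0 to 0.438 RPKM in NS and listed at 0 in all 5 wound libraries. Beside it, the 5 brown adipocyte markers summed to 3.06 to 16.5 RPKM in NS and 0.751 to 1.06 in 5dw, and the 11 skeletal muscle markers to 3.48 to 7.12 and 2.76 to 3.89. The part of these cells in the Cox8b values was not tested. Cox7b2 and Cox8c, of testis, were listed at 0 in every library, and these 5 genes were not tested.

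The 4 members that passed in both genotypes were Atp5s, Cox6b2, Ndufa6 and Ndufb2, all lower in 5dw. They are 36.4% of the 11 called in WT and 66.7% of the 6 called in Act, while of all genes called, 71.3% of those in WT and 91.2% of those in Act were called the same way in both. The estimates had the same sign in 64 of 78 members, or 82.1%, against 89.7% of all genes. No member passed the interaction test, nor did any gene of the 11979. The interaction had an unadjusted p under 0.05 in 400 genes and in 2 members, Atp5j2 and Cox8a.

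In unwounded skin no member passed between genotypes with limma after adjustment, and 2 of 11979 genes did, a background of 0.0167%. At an unadjusted p under 0.05 there were 9 members and 824 genes. The estimates were below 0 in Act NS in 75 of 78 members and in 8787 of the 11979 genes, with a median of -0.19 against -0.11 over all genes. The groups did not overlap in 8 members (10.3%), all lower in Act NS, against 7.98% of all genes lower and 0.993% higher. Without Act NS replicate 1, the library with the lowest summed RPKM, the members' median was -0.07. With median-ratio scaling it was -0.05, and 57 members and 5502 of all genes were below 0. The largest difference was in Ndufa12, an accessory subunit of complex I that was chosen after its values were seen, at -0.63 (95% CI -1.02 to -0.23, adjusted p = 0.679, limma). The confidence interval lay within -1 and 1 in 77 of the 78 members.

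In wounds, 27 of 78 members (34.6%) were lower in both Act 5dw libraries than in all 3 WT 5dw libraries, against 15.2% of all genes, and none was higher in both, against 7.87%. Most of these differences were small. The median over members was -0.12 against -0.04 over all genes, and 75 of 78 confidence intervals lay within -1 and 1. With median-ratio scaling the medians were -0.08 and 0.00, and 19 members were above 0, against 12 on the deposited scale. The counts without overlap were taken on the deposited scale only. Apart from Atp5j2 and Cox8a, the lowest unadjusted p were those of Cox4i2, at 0.97 (95% CI 0.10 to 1.85), and Uqcrq, a small ubiquinone-binding subunit of complex III, at -0.41 (-0.81 to -0.01). Both rested on the Act 5dw library used: leaving out replicate 1 gave 1.82 for Cox4i2 and -0.24 for Uqcrq, and leaving out replicate 3 gave 0.12 and -0.59. In wounding, by contrast, 22 members (28.2%) were lower in all WT 5dw than in all WT NS libraries and 4 (5.13%) higher, against 55.0% and 11.4% of all genes. The 22 include Cox4i2, which was testable only through NS. In Act wounding 11 (14.1%) were lower and 10 (12.8%) higher without overlap, against 49.8% and 14.4% of all genes.

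Genes around the respiratory chain gave a frame for these values, to be read against all genes tested, of which 48.8% were lower and 9.45% higher in WT wounds and 36.5% lower and 9.04% higher in Act wounds. Of the 13 mitochondrially encoded subunits, 6 were lower in WT wounds and 1 in Act wounds, with medians of -0.46 and -0.10. The 6 of 13, or 46.2%, are near the share of all genes, and with median-ratio scaling 1 was higher and 1 lower in WT and 1 higher in Act. Of 39 assembly factors tested, 2 were higher and 11 lower in WT and 4 lower in Act, with medians of -0.28 and -0.15. Of the 17 electron carriers and partners, such as cytochrome c and its relatives, 1 was lower in WT, and 1 was higher and 1 lower in Act, with medians of -0.02 and 0.05. Of the 17 citric acid cycle genes, 1 was higher and 6 lower in WT and 1 higher and 4 lower in Act. These counts turned with median-ratio scaling, which moved the median of all genes to 0.00. Of all genes, 22.4% were then higher with 22.2% lower in WT wounds, while Act wounds had 19.9% higher with 20.8% lower. The citric acid cycle had 6 genes higher in WT, 4 in Act and 0 lower in either. Electron carriers had 9 higher in WT, 6 in Act and 0 lower in either. Assembly factors had 6 higher with 1 lower in WT, while Act gave 8 higher with 1 lower. In either direction, 17.9% of assembly factors passed in WT, against 44.6% of all genes. In Act the share was 23.1% against 40.7%.

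Of 10 regulators of mitochondrial biogenesis tested, 7 were lower in WT and 3 in Act, with medians of -0.53 and -0.31, and with median-ratio scaling 1 was higher and 3 lower in WT and 2 lower in Act. Of the 17 glycolysis genes, 10 were higher and 2 lower in WT and 9 higher and 1 lower in Act, with medians of 0.80 and 0.87. The 75 mitochondrial ribosomal protein genes had medians of -0.09 and 0.02 and the 83 cytosolic ones of -0.24 and -0.14. With median-ratio scaling the medians of all these lists rose, to 1.24 and 1.22 for glycolysis and to 0.00 and 0.25 for the mitochondrially encoded subunits, while the regulators stayed below 0 at -0.17 and -0.05.

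**Figure D5:**
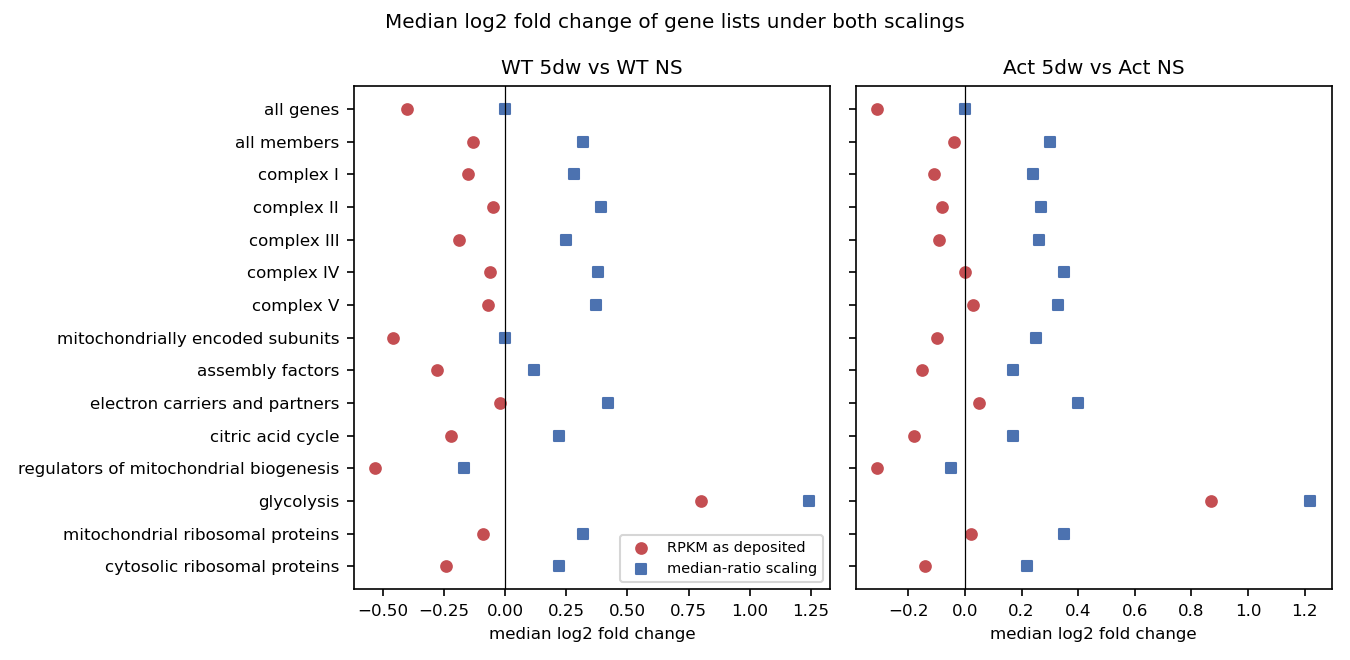
Median log2 fold change of each gene list in WT 5dw vs WT NS and Act 5dw vs Act NS, with RPKM as deposited (circles) and with median-ratio scaling (squares). The members' median moves from -0.13 to 0.32 in WT and from -0.04 to 0.30 in Act, and glycolysis has the highest median under both.

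The members are short genes by transcript. Their lengths ran from 419 to 5628 bases with a median of 1475, against 3714 over all genes tested. In WT wounding the median of all genes fell with length, from -0.22 up to 750 bases to -0.49 above 6000 bases. The median of members up to 750 bases was -0.14, and that of members of 3001 to 6000 bases -0.12. When the trend over length was equalised between libraries, 2 members were higher and 22 lower in WT 5dw, against 9.51% and 48.4% of all genes (57.9% in all). Of the 77 tested members with a value, 37 shared under 5% of their 31-base stretches with other genes, and 11 shared 20% or more, among them Atp5g2, Ndufb11, Ndufs5 and Uqcrb, whose values are less certain for that reason.

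The promoters of the members were searched for the cores of factors known for respiratory genes. The NRF1 core, GCATGCGC, was held by 10 of the 69 members with a RefSeq window (14.5%), against 3.05% of 27025 genes. These 27025 are all genes with a window, expressed here or not, while the members are mostly well expressed. No share was taken over expressed genes alone, so the gap cannot be credited to respiratory genes in particular. The GABPA core, CCGGAAGT, was held by 5 members (7.25%) against 4.31%, and the YY1 core, AAGATGG directly followed by CGG, by 6 (8.70%) against 1.00%. Both strands of the 300-base windows were searched, from 250 bases before to 50 after the start, and no motif contains another. The motifs were chosen after the data were seen. Cox6a1, the member with the highest level, holds the NRF1 core on both strands at overlapping places, and its window is shown for comparison with the windows of Atp5j2 and Cox8a, with the core in capitals (chr5:115348949-115349208, minus strand).
Cox6a1: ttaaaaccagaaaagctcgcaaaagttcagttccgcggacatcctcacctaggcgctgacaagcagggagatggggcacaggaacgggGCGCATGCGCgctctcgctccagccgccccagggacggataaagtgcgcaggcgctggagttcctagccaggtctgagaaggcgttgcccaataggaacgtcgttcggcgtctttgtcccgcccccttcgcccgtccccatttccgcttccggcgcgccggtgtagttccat

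A match of letters is a description and not a site of binding. Any of these cores was held by 20 members (29.0%) against 7.90% of the same 27025 genes, expressed or not. The median log2 fold change of these 20 was -0.14 in WT wounding and -0.04 in Act wounding, against -0.08 and -0.03 in the 46 tested members with a window and no core. Of Atp5j2 and Cox8a, which shared a pattern in the wound libraries, Cox8a holds the GABPA core across its start and Atp5j2 holds none.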

How the data were processed

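RNA from sorted skin fibroblasts was sequenced after poly-A enrichment with a stranded kit. The authors mapped reads in CLC Genomics Workbench and deposited RPKM values per gene, and the submitters' processing notes name GRCm38 and edgeR. No file of counts was used. Mapped reads were recovered from the steps between low values, with 71.4% to 71.9% of values whole within 0.03 reads. The deposited RPKM were tested as log2(RPKM + 0.5) with limma 3.58.1 in R 4.3.3, with a trend, over the 11979 genes that reached 1 RPKM in 2 or more libraries, with 7 residual degrees of freedom. Fold changes are on that scale and understate those of low genes. Benjamini-Hochberg adjustment ran over all genes tested, at a threshold of 0.05. A count model was not the main test, since counts were not the deposited unit. limma-voom on the recovered reads was added after seeing the data.

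The members and gene lists were chosen with earlier results of these data known. Named genes were those called between genotypes, isoform genes, the Sdh genes and, per complex, the 2 highest in level and the 2 highest and 2 lowest in WT wounding. Libraries with the same number correlated in their deviations from group means, at 0.19, 0.12 and 0.11 in WT wounding. The highest values with another number were 0, 0.08 and 0.01. In unwounded skin the same-number values were 0.55, 0.42 and 0.33, against -0.22, 0.19 and -0.12. The numbers were used as pairs only in the replicate block, an alternative setting. All tests given without a block are unpaired. In Act wounding the same-number values were 0.02 and 0.14, and in the genotype comparison of wounds -0.08 and 0.19. Libraries are pools of animals, and p-values measure the spread between pools. Gene positions came from a GRCm38 annotation and promoters from RefSeq (all 83 symbols matched, 69 with a window). The promoter motifs were also chosen after the data were seen. A shorter YY1 word and an E-box were searched first, and the YY1 word was then lengthened and the E-box dropped, so the shares are descriptive. The scripts were tested on simulated data.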

Additional observations from a re-analysis of the deposited data

How the results depend on the processing

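Scaling and filtering moved the counts of members called. In WT wounding, 11 as reported, the count was 7 with no filter and 7 with a filter of 5 RPKM, 38 with median-ratio scaling, 24 with the length adjustment, 20 with array weights and 22 with limma-voom, which was chosen after seeing the data. Quantile normalization gave 16, all higher, against 3 higher and 8 lower as reported. In Act wounding, 6 as reported, it was 3 with the stricter filter, 26 with median-ratio scaling, 15 (14 higher and 1 lower) with quantile normalization, 10 with array weights, 2 with the compared groups alone and 12 with limma-voom. Between genotypes in wounds, 2 as reported, it was 1 with median-ratio scaling and 1 with quantile normalization. Of all genes in WT and Act wounding, 30.5% and 22.8% passed with no filter, 57.2% and 47.1% with the stricter filter, 39.8% and 37.4% with quantile normalization, 64.4% and 55.9% with array weights, 58.3% and 37.3% with the compared groups alone, and 63.1% and 51.5% with limma-voom. The interaction, 0 as reported, gave 1 with no filter and 1 with array weights. The causes of these moves were not tested. With 1 library left out, the members' median ran from -0.20 to -0.08 in WT wounding, against -0.42 to -0.36 over all genes. In Act wounding it ran from -0.17 to 0.02, against -0.37 to -0.26. Shares of all genes called are not given here for these fits or for the replicate block, so their counts have no background. Leaving out 1 library gave 6 to 18 in WT wounding (18 without Act NS replicate 1, 7 without WT NS replicate 3, 6, 6 and 7 without WT 5dw replicates 1, 2 and 3), 1 to 11 in Act wounding (11 without the same Act NS library, 1 without Act 5dw replicate 1, and 3 each when Act NS replicate 2 or 3 was left out), 0 to 2 between genotypes in wounds, 0 to 1 in the interaction and 0 in unwounded skin. The replicate block gave 13 in WT wounding and 6 in Act wounding, 2 between genotypes in wounds and 0 in the other comparisons. With the block the members' median was -0.13 in WT wounding, against -0.40 over all genes, and -0.02 in Act wounding, against -0.31. With median-ratio scaling the WT wounding estimate was above 0 in 74 of 78 members, against 22 as reported. Among named genes with a call on that or the reported scale, the sign changed in Atp5a1 (0.38), Atp5g3 (0.44), Cox7a2 (0.43), Cox7a2l (0.05), Ndufa6 (0.03), Ndufb11 (0.26), Sdha (0.05) and Sdhb (0.27). Depth limits the low genes, and Act 5dw has 2 libraries, so that leaving 1 out assumes the other varies like the other groups.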
